A study of Mus musculus with 2 samples.

Results

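The genes described here are 30 genes of B cells, plasma cells and IgA, out of 18194 genes with a probe set of their own on the arrays. They were chosen as a functional module: 19 B cell genes, 10 immunoglobulin and plasma cell genes, and Pigr, the epithelial receptor that exports IgA. All 30 were found, through 61 probe sets annotated to exactly 1 of their symbols. Per gene, the probe set with the highest mean of both arrays gives the value, and the others are listed beside it.

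The arrays compared the proximal section of the whole intestine of germline CD36-null (CD36KO) mice with that of wild-type (WT) mice, both on the C57BL/6 background and fed chow; ages were not given in the sources used here. Total RNA of 3 animals was pooled per genotype, and each pool was hybridised once (n = 1 per genotype). The deletion was in the germline, so that all cell types carried it, B cells and epithelium included. With 1 array per genotype no difference could be set against the spread between animals or arrays, and no test was run. A gene is called higher or lower here where its difference reached 1.5-fold, which describes these arrays only.

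B cells carry a membrane immunoglobulin, first IgM, whose signal passes through the CD79 proteins. In the follicles of the gut they switch to IgA, leave through lymph and blood, and return to the lamina propria as plasma cells. Plasma cells of the gut secrete IgA joined by the J chain, and the polymeric immunoglobulin receptor of the epithelium carries it into the lumen.

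Values are deposited log2 values, and differences are CD36KO minus WT on that scale. A gene counted as above the expression filter where the higher of its values reached 4.51, which is the median over all probe sets of the higher value. All 12 genes matched to the enterocyte list were above it. Among these was Pdgfb, which is no enterocyte marker and was matched to the listed Sis through a synonym. Cd36 was lower at each of its 3 probe sets, by 2.33-fold to 3.56-fold (no source used here places them relative to the deleted part). Among the 11981 genes above the filter, 5.31% were higher and 3.31% lower past 1.5-fold, and the median difference was -0.0059.

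Several tissue markers differed between the pools in the same RNA. The 11 pancreas acinar genes above the filter were all higher, with a median difference of 1.60, and their summed level was 14.6 in CD36KO and 12.9 in WT (log2 of the sum of linear values over the 13 measured). Of 10 distal small intestine genes 9 were higher, with a summed level of 14.4 in CD36KO and 13.0 in WT. Their median difference was 1.82, and 1.32 among those above the filter in both pools, of which 7 were higher. The remaining 2 passed the filter through CD36KO alone. Of 9 proximal genes 7 were lower, with a summed level of 13.5 in CD36KO and 14.1 in WT. The 8 fibroblast markers had a median of 1.15 and a summed level of 12.7 in CD36KO and 11.6 in WT. For beta-actin, the 3' control probe set exceeded the 5' one by 1.34 in CD36KO and by 2.28 in WT. For GAPDH the excess was 0.71 in CD36KO and 1.28 in WT. The part of these differences in the values below was not tested.

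**Figure D1:**
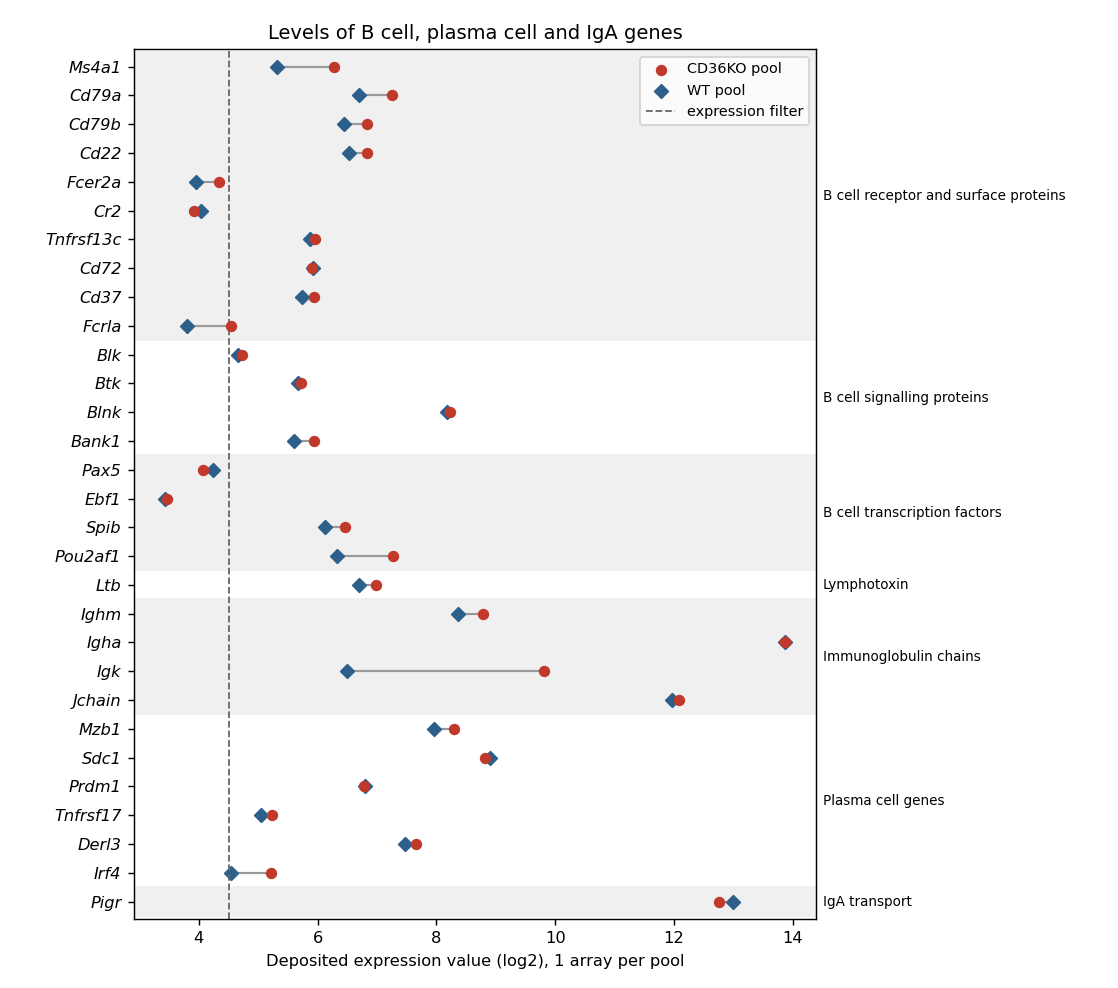
Deposited log2 value (horizontal axis) of each of the 30 genes in the CD36KO pool (red circles) and the WT pool (blue diamonds), 1 array each, grouped by role; the dashed line is the expression filter at 4.51. Most pairs lie close together, and the widest gaps are those of Igk, Ms4a1 and Pou2af1, with CD36KO higher.

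B cell genes read slightly higher in the CD36KO pool, and none reached 2-fold, as 1.61% of all genes above the filter did in that direction. Of the 19, 15 were above the filter, 3 of these were higher past 1.5-fold (Ms4a1, Pou2af1 and Fcrla), 0 were lower, and 14 of the 15 differences were above 0, where 48.8% of all genes above the filter had a difference above 0. Their median difference was 0.31 (1.24-fold). Fcrla passed the filter through CD36KO alone, and of the 14 above it in both pools 2 were higher, against 4.74% of the 11442 genes above it in both. Without a filter 3 of 19 were higher and 0 lower with a median of 0.28, against 3.81% higher and 2.6% lower among all genes without a filter. In whole-gut RNA, fewer or more B cells and less or more RNA per cell cannot be told apart.

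Among the surface proteins of B cells the differences were largest for Ms4a1, which encodes CD20, the target of B cell depleting antibodies. Ms4a1 read 6.28 in CD36KO and 5.32 in WT, 1.94-fold higher. Its other probe set, below the filter, read 4.42 in CD36KO and 3.90 in WT, a difference of 0.53. Cd79a and Cd79b encode the chains that carry the signal of the B cell receptor. Cd79a read 7.25 in CD36KO and 6.70 in WT, 1.46-fold higher and just short of the 1.5-fold line. Cd79b read 6.84 in CD36KO and 6.44 in WT, a difference of 0.40. Both chains of the pair were thus on the higher side in CD36KO without reaching the threshold.

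Receptors that dampen or tune the B cell receptor stayed within 1.5-fold. Cd22, an inhibitory lectin, read 6.83 in CD36KO and 6.52 in WT, a difference of 0.31. Its other probe set, at 3.95 in CD36KO and 3.64 in WT, was below the filter in both pools. Cd72, an inhibitory C-type lectin, read 5.90 in CD36KO and 5.93 in WT and was the 1 B cell gene above the filter with a difference below 0. Cd37, a tetraspanin of mature B cells, read 5.94 in CD36KO and 5.75 in WT. Its other probe set, also above the filter, read 5.78 in CD36KO and 5.42 in WT, a difference of 0.36. Tnfrsf13c, the receptor for the survival factor BAFF, was level, at 5.96 in CD36KO and 5.88 in WT.

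The markers of follicular B cells were at the low end of the scale. Fcrla, an intracellular Fc receptor-like protein, read 4.54 in CD36KO and 3.81 in WT, 1.66-fold higher, with other probe sets at 0.63 and 0.05. Fcer2a, which encodes the low-affinity IgE receptor CD23, was below the filter in both pools, at 4.34 in CD36KO and 3.96 in WT. Its other probe set, also below the filter, differed by 0.24. Cr2, the complement receptor of B cells and follicular dendritic cells, was below it too, at 3.92 in CD36KO and 4.04 in WT. Differences in these 2 genes could not be resolved at this signal.

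The kinases and adaptors downstream of the receptor were nearly level. Blk, a Src-family kinase, read 4.73 in CD36KO and 4.65 in WT. Btk, a kinase whose loss impairs B cell development, read 5.72 in CD36KO and 5.67 in WT. Blnk, the adaptor that links the receptor to phospholipase C, read 8.23 in CD36KO and 8.18 in WT. These 3 differed by 0.05 to 0.07, while the scaffold Bank1 read 5.94 in CD36KO and 5.60 in WT, a difference of 0.33.

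Of the transcription factors, Pou2af1, the coactivator of octamer-binding factors that germinal centres need, stood out. It read 7.26 in CD36KO and 6.33 in WT at its single probe set, 1.91-fold higher, and among genes above the filter 1.84% differed by as much or more in that direction. Spib, an ETS factor of B cells that M cells also make, read 6.47 in CD36KO and 6.12 in WT. Pax5, the factor that holds B cell identity, was below the filter at 4.07 in CD36KO and 4.24 in WT. Its other probe set, also below the filter, differed by 0.14. Ebf1, which acts with Pax5 early in the lineage, was below it at all 5 probe sets, with differences from -0.22 to 0.52. Ltb, the lymphotoxin chain that organises lymphoid follicles, read 6.98 in CD36KO and 6.70 in WT.

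Promoter sequences of members were taken from RefSeq (GRCm38.p6), which held 26 promoters of 23 of the genes, and the 250 bases before the start were searched on both strands. The octamer ATGCAAAT was found in 1 of the 26, that of Blnk, and in 1.60% of all 32851 promoters. An ETS motif, GAGGAAGT, was found in those of Cd37 and Cd72 and in 2.44% of all promoters. No promoter of a member held both motifs. The windows of Pou2af1 and Cd79a, the B cell genes with the largest differences among those whose promoter began at the gene's outermost start, held neither motif and are shown beside that of Blnk, the holder of the octamer, which was level between the pools. Of the other B cell genes past 1.5-fold, Ms4a1 had no promoter among these sequences. The window of Fcrla, also without either motif, is not shown. Stretches of 30 bases show the matches of Cd37 and Cd72. Capitals mark the motif on either strand, and each line runs 5′ to 3′ on the gene's strand.
Pou2af1, chr9:51213440-51213689, plus strand: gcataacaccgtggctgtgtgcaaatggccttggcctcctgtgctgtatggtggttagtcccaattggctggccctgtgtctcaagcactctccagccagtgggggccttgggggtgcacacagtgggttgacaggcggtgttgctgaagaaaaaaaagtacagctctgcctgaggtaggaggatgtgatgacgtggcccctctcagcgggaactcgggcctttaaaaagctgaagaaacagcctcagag
Cd79a, chr7:24897247-24897496, plus strand: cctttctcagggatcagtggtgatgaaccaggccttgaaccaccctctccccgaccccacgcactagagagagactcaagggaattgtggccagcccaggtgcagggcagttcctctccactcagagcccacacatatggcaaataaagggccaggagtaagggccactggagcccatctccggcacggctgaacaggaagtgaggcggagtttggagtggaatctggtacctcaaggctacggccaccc
Blnk, chr19:40994222-40994471, minus strand: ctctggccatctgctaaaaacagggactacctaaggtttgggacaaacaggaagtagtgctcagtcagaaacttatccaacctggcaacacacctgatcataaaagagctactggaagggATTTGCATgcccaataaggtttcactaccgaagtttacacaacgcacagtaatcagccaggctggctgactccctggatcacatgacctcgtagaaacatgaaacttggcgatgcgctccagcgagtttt
Cd37, chr7:45238846-45238875, minus strand: acccccccggaACTTCCTCtttctctgccg
Cd72, chr4:43454657-43454686, minus strand: gccaaagacctACTTCCTCttttatgactt
A match is a description of letters and names no bound site. At the probe sets used, the 3 genes with a match differed by -0.02 (Cd72) to 0.19 (Cd37), and none of them reached 1.5-fold.

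The 4 antibody chain genes of the module differed by very different amounts. Igha, the constant region of IgA, was level at each of its 3 probe sets. They read 13.87, 13.82 and 13.53 in CD36KO and 13.86, 13.81 and 13.42 in WT, and differed by 0.01 to 0.11. These values lie near the top of the table, whose highest value was 14.15 in CD36KO and 14.19 in WT, and whether saturation narrowed them was not tested. Jchain, which joins IgA and IgM into polymers, was also level, at 12.09 in CD36KO and 11.97 in WT.

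Ighm, the constant region of IgM, was higher at most of its probe sets. The one with the highest mean read 8.78 in CD36KO and 8.37 in WT, 1.33-fold higher. Of its 11 probe sets 8 were above the filter, and the other 7 of these were all higher past 1.5-fold, between 1.85-fold and 4.41-fold. The largest of them read 6.00 in CD36KO and 3.86 in WT, which is below the filter in WT. Next came one at 7.13 in CD36KO and 5.68 in WT (2.73-fold) and one at 5.94 in CD36KO and 4.70 in WT (2.35-fold). The 3 below the filter differed by -0.22 to 0.34. At the 7 probe sets above the filter in both pools the differences spanned 1.04, and 3.18% of the 4399 genes with several such probe sets spanned as much or more (median 0.33). Several of these probe sets carry suffixes for sequences shared with other transcripts, and no source used here says which part of the transcript each one reads.

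Igk, the kappa light chain locus, had the widest spread. The probe set used for it read 9.81 in CD36KO and 6.50 in WT, 9.96-fold higher. Another read 5.70 in CD36KO and 4.73 in WT, 1.96-fold higher, while one read 5.23 in CD36KO and 5.71 in WT, 1.39-fold lower, and the last was below the filter. The probe sets above the filter spanned 3.80, and 0.0227% of the 4399 genes spanned as much or more, a share made up of Igk alone. No source used here says which part of the locus each one reads. Among kappa probe sets annotated to several segments, the highest read 11.98 to 13.51 in CD36KO and 12.07 to 13.35 in WT. These differed by -0.09 to 0.17, while another 4 above the filter were 1.67-fold to 3.10-fold higher.

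**Figure D2:**
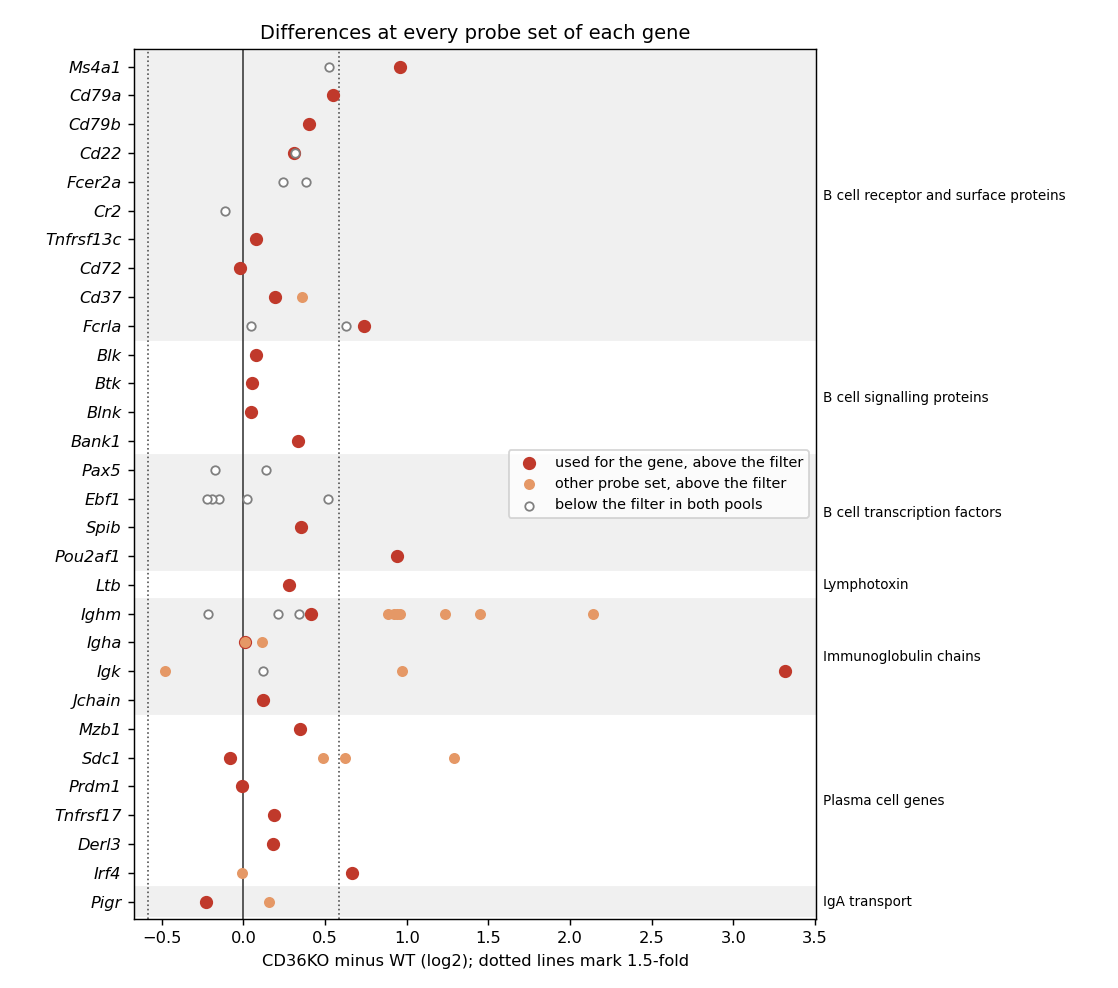
Difference CD36KO minus WT (log2, horizontal axis) at each of the 61 probe sets of the 30 genes; red points are the probe sets used, orange points the others above the expression filter, open points those below it in both pools, and dotted lines mark 1.5-fold. Probe sets of Igha coincide near 0, whereas those of Ighm reach from 0.41 to 2.14 above the filter and those of Igk from -0.48 to 3.32.

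The other segments of the immunoglobulin loci were examined probe set by probe set, since near-identical segments can share signal. Of 43 probe sets annotated to 1 heavy, kappa or lambda gene, Ighm, Igha and Igk included, 26 were above the filter. Of these 16 were higher past 1.5-fold and 0 lower, against 6.86% higher and 3.46% lower among all 19482 probe sets with 1 symbol above the filter. These probe sets share sequence and are no independent observations. The median difference of the 26 was 0.93. An Ighm probe set (6.00 in CD36KO and 3.86 in WT) passed the filter through CD36KO alone. Of the 25 above it in both pools 15 were higher and 0 lower, with a median of 0.92, against 5.95% higher and 3.05% lower among all 18192 such probe sets with 1 symbol.

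Of the 26 probe sets, 10 were higher past 2-fold (1.98% among all probe sets with 1 symbol above the filter), 3 of Ighm, 1 of Igk and 6 of kappa variable segments. Of the 25 above the filter in both pools, 9 were higher past 2-fold, against 1.59% of all such probe sets. Igkv14-111 read 6.86 in CD36KO and 5.25 in WT, 3.05-fold higher. Igkv15-103 read 6.91 in CD36KO and 5.41 in WT, 2.81-fold higher. Igkv6-14 read 8.14 in CD36KO and 6.65 in WT, 2.80-fold higher. Variable segments are chosen by each B cell when it rearranges its locus, so each probe set sees a subset of the antibodies of a pool. Igkv4-68 was 2.57-fold higher, at 6.11 in CD36KO and 4.75 in WT. Igkv9-120 was higher at both probe sets above the filter, 2.62-fold and 2.16-fold. Among segments chosen after their values were seen, Igkv8-30 read 12.41 in CD36KO and 11.71 in WT, and Igkv4-72 read 6.79 in CD36KO and 6.31 in WT.

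Of lambda segments and of heavy chain genes other than Ighm and Igha, 4 probe sets with 1 symbol were above the filter, and none reached 1.5-fold. Iglv1, a lambda variable segment, had probe sets at 0.32 and -0.19 above the filter. Ighg3, the constant region of an IgG subclass, had 1 of 4 probe sets above the filter, at 5.21 in CD36KO and 5.09 in WT. Ighv14-2 read 5.68 in CD36KO and 5.12 in WT, a difference of 0.56.

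Probe sets annotated to several immunoglobulin segments were added after the values were seen. Of 13, 9 were above the filter, 5 were higher and 1 lower past 1.5-fold. Of these 9, 1 passed the filter through CD36KO alone, and of the 8 above it in both pools 4 were higher and 1 lower, against the 5.95% and 3.05% of probe sets with 1 symbol. Of the 7 kappa probe sets among these 9, 3 read between 11.98 and 13.51 in CD36KO and between 12.07 and 13.35 in WT, with differences of -0.09 to 0.17. Another 4, at 6.06 to 8.99 in CD36KO and 5.32 to 7.36 in WT, were 1.67-fold to 3.10-fold higher. The lambda probe set of this kind read 10.40 in CD36KO and 11.16 in WT, 1.70-fold lower.

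**Figure D3:**
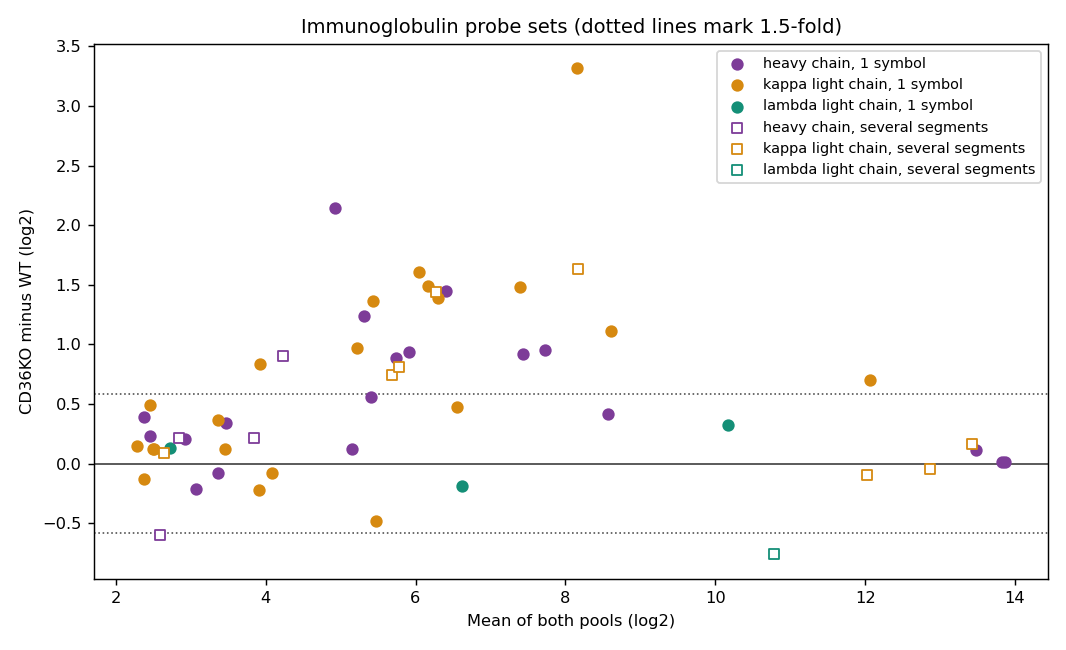
Mean of both pools (log2, horizontal axis) against the difference CD36KO minus WT (log2, vertical axis) for 43 immunoglobulin probe sets with 1 symbol (filled circles) and 13 with several segments (open squares), coloured by chain; dotted lines mark 1.5-fold. Most points past 1.5-fold lie above 0, with Igkv8-30 (12.41 in CD36KO and 11.71 in WT) the one farthest right among them, and the 3 Igha points lie near 0 at the right edge.

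Of the 6 plasma cell genes other than the antibody chains, 1 (Irf4) was higher past 1.5-fold at the probe set used and 5 lay within that fold. With the 4 antibody genes they make 10 members, all above the filter, of which 2 were higher (Igk and Irf4) and 0 lower, with a median difference of 0.18 (1.14-fold), against 5.31% higher and 3.31% lower among all genes above the filter. These values moved with the probe set taken per gene, and so did the genes counted. At the one of smallest absolute difference 0 were higher with a median of 0.066, without Ighm and Igk, which there fell below the filter. At probe sets of plain names, those with no suffix for shared sequence, 4 were higher with a median of 0.49. Igha and Derl3 have no probe set of a plain name and were not counted there. Whether the plasma cell and immunoglobulin genes differ from the B cell genes, whose median was 0.31, was not tested. Mzb1, a chaperone of the endoplasmic reticulum that helps assemble IgM and IgA, read 8.30 in CD36KO and 7.95 in WT, a difference of 0.35. Prdm1, the factor that drives plasma cell differentiation and is also made by epithelium, was level at 6.78 in CD36KO and 6.79 in WT. Tnfrsf17, the plasma cell survival receptor BCMA, read 5.23 in CD36KO and 5.04 in WT. Derl3, a protein of endoplasmic reticulum degradation that acinar cells of the pancreas also make, read 7.65 in CD36KO and 7.47 in WT.

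The calls on Irf4 and Sdc1 hung on the probe set. Irf4, which plasma cell formation requires, read 5.21 in CD36KO and 4.55 in WT at the probe set used, 1.58-fold higher. Its other probe set read 4.58 in CD36KO and 4.59 in WT, with no difference. Sdc1, the syndecan that marks plasma cells and that epithelium carries too, read 8.82 in CD36KO and 8.90 in WT at the probe set used. The other 3 were on the higher side in CD36KO, at 9.08 in CD36KO and 8.45 in WT, at 7.42 in CD36KO and 6.93 in WT, and at 6.06 in CD36KO and 4.77 in WT, differences of 0.62, 0.48 and 1.29. Differences at the probe sets of Sdc1 spanned 1.37, and 0.796% of the 4399 genes with several probe sets above the filter in both pools spanned as much or more.

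Pigr, the epithelial carrier of IgA, was nearly level and its probe sets went opposite ways. The probe set used read 12.76 in CD36KO and 12.99 in WT, a difference of -0.23. The other read 12.16 in CD36KO and 12.00 in WT, a difference of 0.16.

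Other genes of the B cell and IgA pathway were taken from fixed lists. Of 22 further B cell genes above the filter (25 measured), 2 were higher and 0 lower, with a median of 0.27. Among all genes above the filter, 5.31% were higher and 3.31% lower. Btla, an inhibitory receptor of lymphocytes, was 1.75-fold higher, and Cd24a, which epithelium also makes, was 1.67-fold higher, with other probe sets from 0.19 to 1.88. Fcmr, the IgM Fc receptor, was 1.44-fold higher, and Cd74, the invariant chain of MHC class II, 1.39-fold. Of 11 germinal centre and follicle genes above the filter, 1 was higher, Cxcl13, the chemokine that draws B cells into follicles. It read 7.12 in CD36KO and 6.15 in WT, 1.96-fold higher, with 0.86 at its other probe set. Next by size were Cd83, an activation marker, at 0.39, the death receptor Fas at -0.39, and Ciita, the activator of MHC class II genes, at 0.34 (0.50 to 0.71 elsewhere). The receptor of Cxcl13, Cxcr5, and the germinal centre cytokine Il21 were below the filter in both pools.

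The genes of B cell survival, IgA switching and gut homing were mostly within 1.5-fold, as were all genes above the filter (5.31% higher and 3.31% lower). Of 10 survival and switching genes above the filter 1 was higher, Tgfbr2 (1.81-fold, with other probe sets from -0.28 to 0.31), a receptor chain of the switch factor TGF-beta, and 1 was lower, Aldh1a1, which makes retinoic acid, at 11.13 in CD36KO and 11.90 in WT. Tgfb1, the switch factor itself, read 5.52 in CD36KO and 5.08 in WT, a difference of 0.45, with -0.02 at its other probe set. Tnfsf13b, the survival factor BAFF, differed by 0.33 and by -0.43 and -0.11 at other probe sets. Of 11 homing genes above the filter 1 was higher, Cxcl12 (1.88-fold, 0.11 to 0.32 elsewhere), a chemokine that fibroblasts make and plasma cells follow. Ccr6, a chemokine receptor of B cells, differed by 0.58. Itga4, an integrin chain of gut homing, read 6.59 in CD36KO and 6.15 in WT, a difference of 0.44, with -0.21 to 0.35 elsewhere, and Madcam1, the vascular address of the gut, differed by 0.41. Ccl25 and Ccl28, the epithelial chemokines that draw IgA plasma cells, differed by -0.18 and -0.08.

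In the secretory apparatus that plasma cells share with other secretory cells, 3 of 18 genes were higher and 0 lower, with a median of 0.16. Among all genes above the filter, 5.31% were higher and 3.31% lower. The 3 were Fkbp11 (1.95-fold, -0.06 to 0.09 elsewhere), Ssr4 (1.60-fold, -0.31 to 0.10 elsewhere) and Sdf2l1 (1.53-fold). Txndc5, a disulfide isomerase, differed by 0.45, with 0.63 elsewhere. The pancreas acinar genes, whose cells depend on the same apparatus, had a median of 1.60 in the same pools, and their part in these values was not tested.

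Markers of other cells near B cells did not move alike. The 9 T cell genes above the filter had a median of 0.02 with 0 past 1.5-fold, and their summed level was 9.99 in CD36KO and 9.93 in WT. Of 10 pan-leukocyte genes, whose median was 0.36, 3 were higher, against 5.31% of all genes above the filter. These were Cd53 (1.87-fold, 0.33 elsewhere), Cd52 (1.65-fold) and Arhgdib (1.51-fold). The pan-leukocyte genes had a summed level of 11.6 in CD36KO and 11.3 in WT. Of 10 macrophage and dendritic cell genes 3 were higher, Lyz2 most (2.16-fold), and their median was 0.25. The 19 B cell genes had a summed level of 10.6 in CD36KO and 10.3 in WT.

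Genes of M cells, the epithelial cells that cover lymphoid follicles, were higher in 3 of 7 cases, with a median of 0.46. Of all genes above the filter, 5.31% were higher. Marcksl1 was 3.38-fold higher (0.33 to 1.79 elsewhere), Gp2 2.26-fold and the chemokine Ccl9 1.74-fold. Gp2 is also a zymogen granule protein of the pancreas, whose genes were higher in the same pool. Another M cell marker, Ccl20, differed by -0.29. The amount of follicle tissue in each pool was not recorded in the labels, and its part in the B cell values was not tested.

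**Figure D4:**
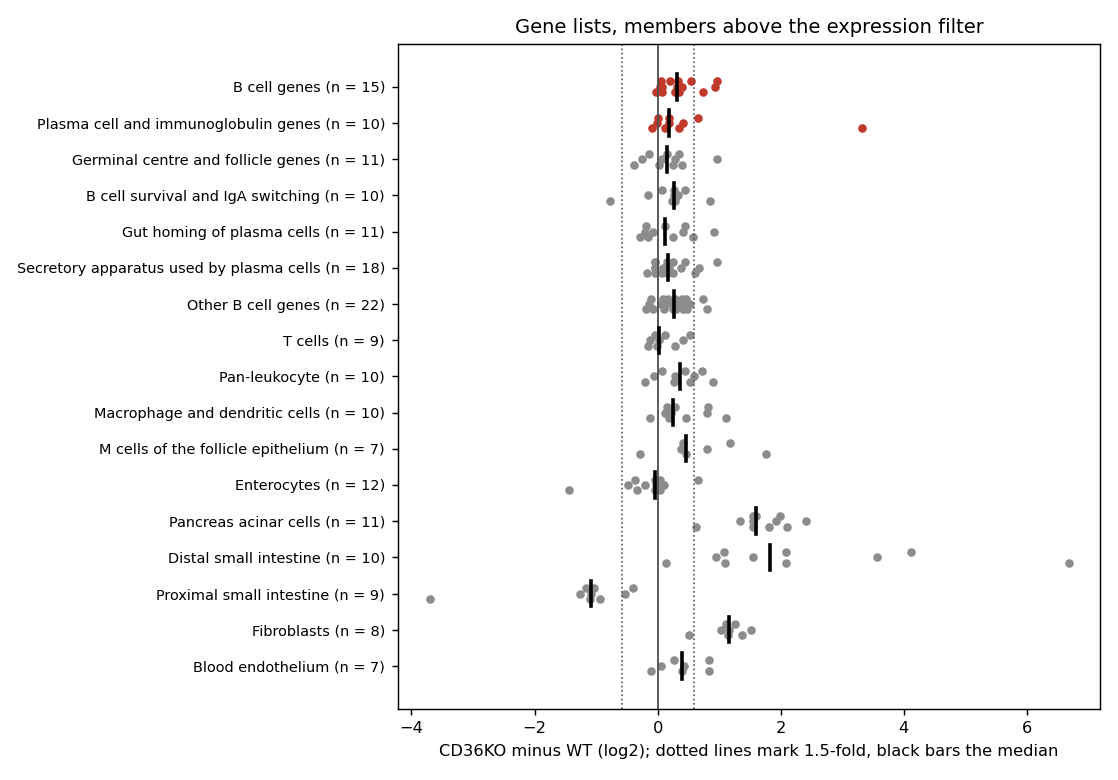
Difference CD36KO minus WT (log2, horizontal axis) of each gene above the expression filter, by list, with the B cell and the plasma cell and immunoglobulin members in red and other lists in grey; black bars mark medians and dotted lines 1.5-fold. The medians of the red lists, 0.31 and 0.18, lie close to those of most immune lists and below those of pancreas (1.60), distal intestine (1.82) and fibroblast genes (1.15).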

How the data were processed

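Biotinylated cRNA from 100 ng of total RNA was hybridised to Affymetrix arrays, 1 per pool of 3 animals, per the labels' protocols. The authors deposited 1 table of log2 values for 45101 probe sets, with medians of 4.38 (CD36KO) and 4.38 (WT); the log base follows from the values, and how probe sets were summarized and normalized is not stated in them or the labels. The table holds no detection calls or background. Of the probe sets, 34958 carried 1 gene symbol in the platform annotation, 932 several and 9211 none; of the identifiers, 34754 were found in RefSeq GRCm38.p6, which changed 0 symbols.

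Per gene the probe set with the highest mean was used, and CD36KO minus WT differences were computed with no further normalization (pandas 2.3.3 and NumPy 2.4.6 in Python 3.11.15; lowess from statsmodels 0.14.6; figures from matplotlib 3.10.9), after tests on simulated data. No p-value was possible with 1 array per genotype. The members, the 16 other gene lists (189 of 207 genes matched) and the thresholds were chosen with earlier results of these data known. Named were all members, Cd36, immunoglobulin probe sets past 2-fold, and up to 4 genes per list with the largest absolute difference above the filter (all 4 in each B cell, switching, homing and secretory list, fewer in marker lists of other cells); other genes were chosen after their values were seen. Red blood cell genes were all below the filter (3 measured). Alternatives covered scaling, the probe set per gene, the filter and the threshold.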

Additional observations from a re-analysis of the deposited data

How the results depend on the processing

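No paired analysis was possible because each genotype has 1 array, and for the same reason no replicate could be left out. Under median centring, quantile normalization and removal of a lowess trend (fraction 0.3), all 29 members other than Pigr stayed within 0.1 of their difference, and 5 of them were higher past 1.5-fold under each. With the probe set of smallest absolute difference per gene, 1 B cell gene and 0 plasma cell and immunoglobulin genes were higher, the median of the second group was 0.066, Irf4 turned to -0.0094, Pigr to 0.16, and 383 of all genes were higher and 208 lower. Ighm and Igk, and of the B cell genes Ms4a1 and Fcrla, were not counted there, since the probe sets so taken were below the filter. With probe sets of plain names only, 4 plasma cell and immunoglobulin genes were higher, with a median of 0.49. Igha and Derl3 have no such probe set and were not counted. With the mean over probe sets Pigr differed by -0.037 and 255 of all genes were lower. With the filter at the 75th percentile, 1 B cell gene, 1 plasma cell or immunoglobulin gene, 10 immunoglobulin probe sets and 390 of all genes were higher. At 2-fold the counts were 0, 1, 10 and 193 in that order, with 75 of all genes lower, and at 3-fold they were 0, 1, 3 and 71, with 14 lower. With probe sets of several segments, an alternative chosen after seeing the data, 1 immunoglobulin probe set was lower. The median of the B cell genes stayed between 0.27 and 0.35 under the alternatives tried, the filter on both arrays, also chosen after seeing the data, included. No signal over background was used here, so members below the filter give no usable difference.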
